A study of Mus musculus with 42 samples.

Results

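Primordial germ cell-like cells (PGCLCs) are made in culture by passing mouse induced pluripotent stem cells (iPSCs) through epiblast-like cells and then culturing these as floating aggregates with BMP4. The series studied exposure to bisphenol S (BPS), an estrogen-like plasticizer, and it contains 2 sets of PGCLCs that were given only the ethanol vehicle. The comparison described here is between these sets, 3 libraries titled as PGCLC controls and 3 titled as PGCLC controls of the persisting epimutations experiment, together 6 of the 42 RNA-seq libraries of the series, chosen by title and not by any measured value. It asks how far 2 inductions of the same cell type differ when no BPS is involved, in developmental stage, in the transcripts of other cell types that they hold, and in metabolism.

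In the first set, called direct vehicle PGCLCs, the vehicle was added to the medium of the PGCLC aggregates in round-bottom wells for 24 hours and was followed by a wash and a recovery of 8 hours before sorting. In the second set, called derived vehicle PGCLCs, the vehicle was applied for 24 hours to the ancestral iPSCs in sealed flasks filled with gassed medium, and these iPSCs were then taken through epiblast-like cells to PGCLCs with no further vehicle. Both sets came from the same male iPSC line, reprogrammed with an inducible 4-factor cassette from embryonic fibroblasts of a single fetus, so the libraries are replicate preparations of 1 line and the p-values measure the spread between these preparations. The study describes 6 batches of plates for 3 control and 3 treated PGCLC replicates, with aggregates pooled and sorted by batch. It does not say whether the batches of a set were induced together, in which case the comparison would rest on 1 induction of each kind. Direct replicates 2 and 3 were the closest pair, with a chi-square per gene of 2.02, against 4.16 to 40.9 in the other pairs within a set. The highest values, 38.2 and 40.9, came from pairs with direct replicate 1, a library rich in transcripts of the rRNA type. Correlations of log2 values within a set ran from 0.985 to 0.9954. Both were enriched by fluorescence sorting for cells positive for FUT4 (SSEA1) and ITGB3, the surface markers used for PGCLCs. How the vehicle was given, the time between vehicle and harvest and the induction differ together between the sets, so their parts in any difference cannot be told apart. Whether the sets also differed in the sort session or the library preparation is not stated in the sources used here. The 6 PGCLC libraries exposed to 1 µM BPS in the same 2 ways (direct BPS and derived BPS, 3 each) and the 6 vehicle libraries of undifferentiated iPSCs (3 ancestral iPSC vehicle and 3 iPSC vehicle) are used only as side marks.

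In the embryo, primordial germ cells are set aside from the posterior epiblast when BMP4 from the neighboring extraembryonic ectoderm acts on cells that WNT3 has made competent. PRDM1, PRDM14 and TFAP2C then hold down the somatic program, and the germ cells keep pluripotency genes such as Nanog and Sox2 while the mesoderm around them passes from primitive streak to extraembryonic, cardiac and lateral plate fates and opens its HOX clusters in order, from anterior to posterior genes. In aggregates a subset of the cells follows the germ cell route and the others form mesoderm-like cells, which the sort is meant to remove.

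Values are CPM, the scaled share of a library's reads that fell on a gene, given in the order of replicates 1, 2 and 3. A log2 difference is the direct minus the derived vehicle mean on the log2 scale with its standard error (SE, n = 3 libraries each), so that a positive number means higher in direct vehicle PGCLCs. A gene was called, and is described as higher or lower, where the two-sided limma test gave an adjusted p (Benjamini-Hochberg, over all genes tested) of at most 0.05.

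The direct vehicle libraries held 26693847, 28869454 and 30231927 reads in genes and the derived vehicle libraries 32123519, 28203092 and 32775190. Of the direct libraries, replicate 1 stood apart in transcripts of the rRNA type, which summed to 10730 CPM in it, 548.5 and 933.2 CPM in the other two and 530.1 to 1263 CPM in the derived libraries. Of the derived libraries, replicate 2 stood apart in its pluripotency genes, with 3795 CPM summed over the naive pluripotency genes against 4923 and 5210 CPM in its fellow replicates. The defining genes of the germ cell fate were read in all 6 libraries, and so were mesoderm genes that germ cells are not known for, such as Hand1, at 308, 305 and 314 CPM in the direct and 254, 397 and 275 CPM in the derived libraries. In bulk RNA, fewer cells of a type and less RNA per cell cannot be told apart, and this holds for every result below.

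The 2 vehicle inductions differed at 43.9% of the genes tested. Of 16378 genes, 7183 passed the test, 3372 higher and 3811 lower in direct vehicle PGCLCs (20.6% and 23.3% of those tested), and groups without overlap were found at 57.7% of genes. Most differences were small. The median size of the log2 difference was 0.377 among called genes, and 810 genes were called with a change of 2-fold or more, 405 in each direction. The median over all genes was -0.0076, a value that the scaling of the libraries holds near 0. Counts in the gene lists below are to be read against the shares of 20.6% and 23.3%. Leaving out direct vehicle replicate 2 lowered the number of calls to 5066, and leaving out derived vehicle replicate 2 raised it to 8581.

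The distance between inductions exceeded the distance between replicates. The root mean square log2 difference over genes averaged 0.555 between a direct and a derived library (0.498 to 0.658 over the 9 pairs), 0.288 between 2 direct libraries (0.231 to 0.328) and 0.344 between 2 derived libraries (0.249 to 0.407). For scale, a direct BPS and a direct vehicle library averaged 0.340, and a vehicle PGCLC and a vehicle iPSC library between 1.52 and 1.59. Libraries of the 2 vehicle iPSC groups averaged 0.478 from each other (0.462 to 0.496), and 0.357 and 0.356 within a group. The same contrast in the BPS libraries, direct BPS minus derived BPS, called 36.5% of 16325 genes. Of the 16076 genes tested in both arms, 4217 were called in both, which is 59.4% of the vehicle calls and 71.2% of the BPS calls, and 4182 of these had the same direction. BPS against vehicle within an induction called 26.6% of genes in direct PGCLCs and 0 of 16268 genes in derived PGCLCs by limma, where 2578 had an unadjusted p under 0.05. The study itself reported differentially expressed genes for both contrasts with edgeR on read counts, a test that was not run here.

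Among genes of a CPM of at least 5, the largest increase belonged to Cubn, the gene of cubilin, an endocytic receptor of visceral endoderm and kidney (chr2:13276338-13491876, GRCm38). Cubn had 15.96, 15.7 and 16.7 CPM in direct vehicle PGCLCs, against 0.920, 0.819 and 0.955 CPM in derived vehicle PGCLCs (log2 difference 4.12 ± 0.12, adjusted p = 9.5e-07). The other increases that led the ranking were Alox15, a lipoxygenase, Arg1, arginase of the urea cycle, Slc15a2, a peptide transporter, Sprr2a3, a small proline-rich protein of a family with near-identical copies, and Rpph1, the RNA of ribonuclease P, with log2 differences of 2.08, 2.03, 1.75, 1.78 and 1.83. Rpph1 is a transcript without a poly(A) tail and had 92.8, 20.1 and 24.8 CPM in the direct libraries, highest in the replicate that is rich in rRNA-type transcripts, against 15.7, 4.59 and 14.3 CPM in the derived libraries, and it was no longer called without that replicate (log2 difference 1.14, adjusted p = 0.12), nor without direct replicate 3 or derived replicate 3 (0.060 and 0.056), with limma-voom on recovered reads (0.069), without the filter on low values (0.099) or in a fit of all 42 libraries (0.11).

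The largest decreases included genes of differentiated mesoderm and its matrix. Igfbp5, a secreted binding protein of insulin-like growth factors (chr1:72858065-72874865), had 10.4, 9.75 and 9.76 CPM in direct vehicle PGCLCs, against 99.4, 162 and 107 CPM in derived vehicle PGCLCs (log2 difference -3.58 ± 0.16, adjusted p = 8.8e-06). All 3 direct libraries were near 10 CPM and no derived library came close to them. Hapln1, which links hyaluronan to proteoglycans, and Scube1, a secreted EGF-domain protein, were lower (log2 differences -2.73 and -2.43). Spin2c was lower too (log2 difference -2.35), but it belongs to a family of near-identical copies between which reads may be split.

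Several genes of the primitive streak, chosen after their values were seen, were higher in direct vehicle PGCLCs. T (Brachyury), the T-box factor of streak and nascent mesoderm (chr17:8434423-8442496), had 130.4, 137 and 144 CPM in direct libraries, against 40.6, 38.5 and 44.04 CPM in derived libraries (log2 difference 1.74 ± 0.059, adjusted p = 2.4e-06). Fgf8, the growth factor that streak cells need to migrate away (chr19:45736491-45742941), had 47.5, 48.2 and 46.4 CPM against 12.9, 12.5 and 13.96 CPM (log2 difference 1.85 ± 0.060, adjusted p = 2.1e-06). In each gene the lowest direct library lay far above the highest derived one.

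Mesp1 and Msgn1, which mark cardiac and paraxial mesoderm as they leave the streak, stood higher still by ratio but low in level. Mesp1 had 4.59, 4.47 and 5.22 CPM in direct, against 0.748, 0.623 and 0.955 CPM in derived libraries (log2 difference 2.59 ± 0.19, adjusted p = 4.2e-05), and Msgn1 had 3.12, 3.47 and 3.07 CPM against 0.316, 0.164 and 0.421 CPM (log2 difference 3.37 ± 0.31, adjusted p = 1.1e-04). Rspo3, an amplifier of WNT signals, Evx1, a homeobox gene of the posterior streak, Eomes, a T-box factor of the early streak and trophoblast, and Cyp26a1, the retinoic acid-degrading enzyme of streak and tail bud, were higher as well, with log2 differences of 0.97, 0.61, 0.89 and 1.68. Mixl1, a streak homeobox gene, had 6.27, 5.86 and 7.30 CPM against 4.66, 1.28 and 4.49 CPM and was not called (log2 difference 1.10 ± 0.43, adjusted p = 0.067), with derived replicate 2 far below its fellows, but it was called without that library (log2 difference 0.49, adjusted p = 0.0015). Other genes of streak and nascent mesoderm on the mesoderm list were not called, namely Gsc, Lhx1, Tbx6, Mesp2, Wnt3a and Nkx1-2 (log2 differences 0.50, 0.62, 0.21, 0.49, 0.64 and 0.17). Without derived replicate 1, Lhx1 and Wnt3a were called as higher (log2 differences 0.943 and 0.87, adjusted p = 0.040 and 0.038), and so was Nkx1-2 without derived replicate 2 (log2 difference 0.40, adjusted p = 9.1e-06).

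Several genes of later lateral plate, limb-bud and allantois mesoderm, chosen in the same way, were lower. Tbx4, the T-box factor of allantois and hindlimb (chr11:85886367-85916097), had 5.43, 6.18 and 5.89 CPM in direct vehicle PGCLCs, against 53.7, 78.4 and 60.2 CPM in derived vehicle PGCLCs (log2 difference -3.44 ± 0.13, adjusted p = 3.8e-06). Pitx1, its partner in the hindlimb field, had 6.65, 6.34 and 6.94 CPM against 42.5, 64.8 and 44.6 CPM (log2 difference -2.90 ± 0.14, adjusted p = 1.2e-05), and Hand2, of heart, limb and allantois, had 5.95, 4.28 and 5.28 CPM against 28.9, 39.3 and 35.1 CPM (log2 difference -2.73 ± 0.14, adjusted p = 1.2e-05). The direct libraries were close to one another and several times below the derived ones, among which replicate 2 was the highest for each of these genes. Twist1, a mesenchymal bHLH factor, Prrx1, of limb mesenchyme, Aldh1a2, which makes retinoic acid, Isl1, of second heart field and hindlimb, and Gata6 were lower (log2 differences -1.54, -1.97, -1.97, -1.08 and -0.94). Other genes of these tissues on the mesoderm list were higher, namely Meis1, Meis2, Tbx3 and Wnt5a (log2 differences 0.92, 0.48, 0.43 and 0.43), Wnt5a with no call in the fit of all 42 libraries (adjusted p = 0.24). Msx1, Msx2, Tbx20 and Snai2 were not called, but without derived replicate 1 Msx1, Tbx20 and Snai2 were lower (log2 differences -0.445, -0.60 and -0.54, adjusted p = 0.0034, 0.0010 and 0.019).

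Other mesoderm genes were not called. Hand1, of extraembryonic and lateral mesoderm, was among the most abundant of the list and was not called (log2 difference 0.030 ± 0.14, adjusted p = 0.88), and neither was Cdx2, of posterior mesoderm and trophoblast, at 78.3, 82.9 and 78.97 CPM in direct and 66.99, 102 and 75.1 CPM in derived libraries. In both genes derived replicate 2 was the highest library and the other derived libraries were the lowest, and without replicate 2 both were called as higher in direct PGCLCs by a small amount (log2 difference 0.23 for Hand1 and 0.18 for Cdx2, adjusted p = 8.9e-06 and 0.0028). Over the whole mesoderm list, 13 of 49 members tested were higher, 15 were lower and 21 were not called, with a median log2 difference of -0.011. These counts are not far from the shares of 20.6% and 23.3% over all genes. The summed level of the list was 1690 to 1715 CPM in direct and 1456 to 1714 CPM in derived libraries. The ranges of the sum overlapped.

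**Figure D1:**
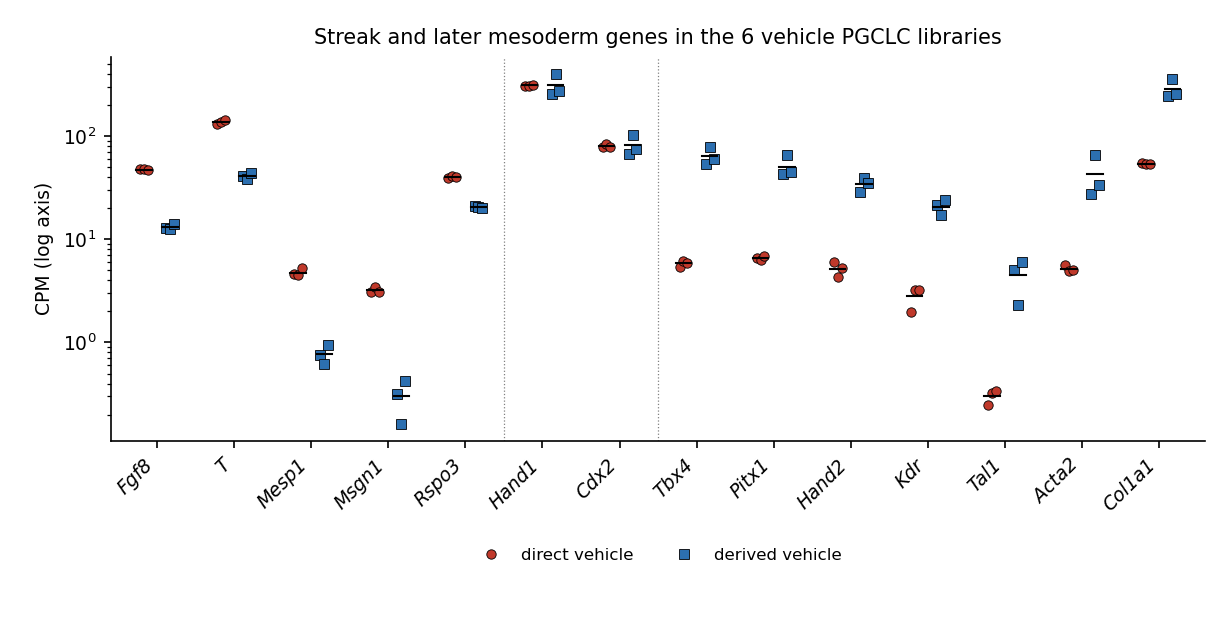
Level of mesoderm and vessel genes in each vehicle PGCLC library, in CPM on a log axis, with the direct libraries left of the derived ones for each gene and a bar at the group mean. The genes shown are a selection made with their values known. Among them the streak genes Fgf8, T, Mesp1, Msgn1 and Rspo3 lie higher in the direct libraries. Hand1 and Cdx2 overlap between the inductions, and Tbx4, Pitx1, Hand2, Kdr, Tal1, Acta2 and Col1a1 lie lower in the direct libraries. Other streak genes, such as Gsc, Lhx1 and Tbx6, were not called. Some later mesoderm genes, such as Meis1, Tbx3 and Wnt5a, were higher. The whole mesoderm list had 13 higher, 15 lower and 21 uncalled members of 49 tested.

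T and Tbx4 differed in the same direction in the BPS libraries. T averaged 172 ± 18.9 CPM in direct BPS and 47.4 ± 7.87 CPM in derived BPS PGCLCs, and Tbx4 averaged 7.60 ± 0.586 CPM and 87.4 ± 31.7 CPM (SD, n = 3 each). Of the mesoderm list, 15 members were higher and 16 lower in direct BPS PGCLCs, against 18.7% and 17.8% of all genes tested in that arm. In the test of the difference between the arms (the direct minus derived log2 difference with vehicle minus that with BPS), which called 1.97% of genes, 3 of the list were called, namely Meis1, Meis2 and Tbx3, with log2 differences of 0.060, -0.26 and 0.15 in BPS (adjusted p of the difference = 0.050, 0.035 and 0.034).

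Most HOX genes were lower in direct vehicle PGCLCs, and the few that were higher belonged to the first paralog groups. HOX proteins give cells their address along the body axis, and genes of paralog groups 1 to 4 act in hindbrain and anterior trunk while groups 9 to 13 act in lumbar, tail and limb regions. Of 37 HOX genes tested, 4 were higher and 25 lower, with a median log2 difference of -0.99. The level summed over the HOX genes was 166.6, 166.6 and 175.5 CPM in direct libraries, against 268.2, 312.6 and 303.6 CPM in derived libraries and 63.29 to 68.69 CPM in vehicle iPSCs. Both inductions thus lay above the iPSC level, and the derived libraries lay above every direct one.

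Hoxc10 (chr15:102966796-102971898) had 3.26, 3.15 and 3.07 CPM in direct vehicle PGCLCs, against 15.9, 20.7 and 20.03 CPM in derived vehicle PGCLCs (log2 difference -2.56 ± 0.11, adjusted p = 8.8e-06). Its neighbor Hoxc11 (chr15:102954526-102956701) had 0.805, 0.515 and 0.552 CPM against 2.85, 4.98 and 3.93 CPM (log2 difference -2.58 ± 0.26, adjusted p = 1.6e-04). Hoxd13 (chr2:74668225-74671603), the last gene of its cluster, had 4.59, 4.41 and 4.48 CPM against 11.8, 13.8 and 13.7 CPM (log2 difference -1.53 ± 0.095, adjusted p = 2.0e-05). In all 3 genes the groups stood clear of each other. For Hoxc10 and Hoxc11 the direct libraries lay between the means of the 2 vehicle iPSC groups (4.98 and 2.17 CPM for Hoxc10, 1.14 and 0.504 CPM for Hoxc11), and for Hoxd13 they lay above both (2.72 and 1.82 CPM).

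The HOX genes that were higher all sit at the anterior end. Hoxb1 (chr11:96365746-96368254), a gene of hindbrain and early posterior mesoderm, had 4.94, 4.28 and 4.70 CPM in direct libraries, against 1.21, 1.05 and 1.10 CPM in derived libraries (log2 difference 2.02 ± 0.14, adjusted p = 3.6e-05). Hoxa2 and Hoxa3 were higher as well, with log2 differences of 1.37 and 1.11, at levels of a few CPM or less. At a CPM minimum of 5 in place of 0.5, 1 HOX gene was higher of 22 tested.

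Grouped by paralog number, with group limits chosen after the values were seen, groups 1 to 4 had 4 higher and 6 lower of 12 genes tested (median -0.12), groups 5 to 8 had 0 higher and 8 lower of 11 (median -1.07), and groups 9 to 13 had 0 higher and 11 lower of 14 (median -1.31). The lower genes came from all 4 clusters, 4 from HOXA and 7 each from HOXB, HOXC and HOXD. Within clusters the sizes followed no regular order, with log2 differences of -2.46 for Hoxb6 and -0.59 for Hoxb9, -2.22 for Hoxc6 and -0.11 for Hoxc13, and -2.06 for Hoxd3 and -1.53 for Hoxd13. Hoxc12, Hoxc13 and Hoxd9 were the posterior genes not called. Hoxd9, the most abundant of the posterior genes in direct libraries, was at 35.8, 36.0 and 39.7 CPM in direct and 32.3, 38.7 and 34.6 CPM in derived libraries, and without derived replicate 2 it was higher (log2 difference 0.15, adjusted p = 0.024). In the BPS arm 1 HOX gene was higher and 28 were lower of 36 tested, with a median of -1.47, and the 3 paralog classes had medians of -0.79, -1.52 and -1.85. Hoxb1 averaged 5.60 ± 1.23 CPM in direct BPS and 2.41 ± 1.33 CPM in derived BPS PGCLCs (SD, n = 3 each) and was the HOX gene that was higher there (log2 difference 1.33 ± 0.35, adjusted p = 0.015).

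**Figure D2:**
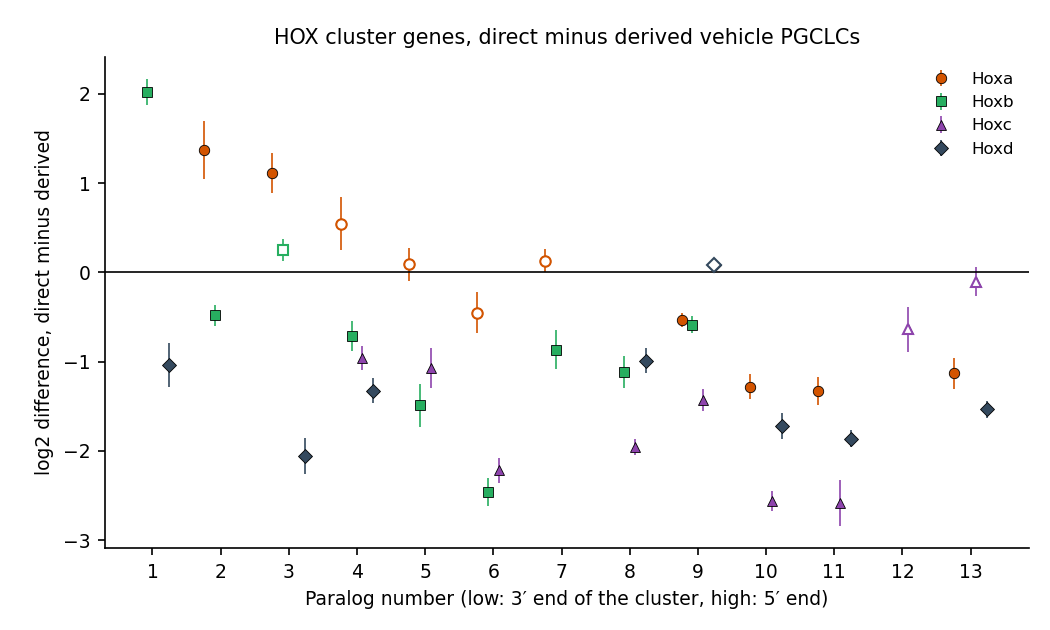
Log2 difference of 36 of the HOX genes tested between direct and derived vehicle PGCLCs, with its SE, against paralog number and by cluster; open symbols did not pass the test. Positive values are found only at paralog numbers 1 to 3 among called genes, and from 5 upward no called gene is above 0.

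Endothelial and blood genes leaned lower in direct vehicle PGCLCs. Kdr, the VEGF receptor of vessel and blood progenitors (chr5:75932827-75979072), had 1.96, 3.25 and 3.25 CPM in direct libraries, against 21.2, 17.2 and 23.8 CPM in derived libraries (log2 difference -2.89 ± 0.20, adjusted p = 3.6e-05). Tal1, the bHLH factor of blood and vessel precursors, had 0.245, 0.322 and 0.338 CPM against 5.06, 2.29 and 6.07 CPM (log2 difference -3.66 ± 0.35, adjusted p = 1.4e-04). The lowest derived library still exceeded the highest direct one several times over for both. Runx1, of definitive blood, Tek, the angiopoietin receptor, and Sox18 were lower (log2 differences -1.13, -1.12 and -1.97), while Flt1, a decoy VEGF receptor that trophoblast also makes, and Epor, the erythropoietin receptor, were higher (log2 differences 0.49 and 1.08), Flt1 with no call in the fit of all 42 libraries (adjusted p = 0.34). Of 19 members tested, 2 were higher and 9 lower, with a median of -0.65. The summed level was 166.0 to 171.3 CPM in direct and 167.3 to 214.1 CPM in derived libraries. A further 9 members, Gata1 and Klf1 of red cells and Ptprc of white cells among them, were too low to be tested. At a CPM minimum of 5, the number of lower members was 2, since most of the list lies under that level.

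Smooth muscle and fibroblast genes were lower in direct vehicle PGCLCs, with 1 higher and 13 lower of 19 tested and a median of -0.65. Acta2, smooth muscle actin, had 5.64, 4.89 and 5.06 CPM in direct libraries, against 27.6, 66.02 and 33.7 CPM in derived libraries (log2 difference -2.92 ± 0.27, adjusted p = 1.2e-04). Col1a1, the main chain of type I collagen, had 55.03, 53.6 and 53.5 CPM against 244, 359 and 257 CPM (log2 difference -2.39 ± 0.12, adjusted p = 1.2e-05). Derived replicate 2 was the highest library for both, and no direct library reached the lowest derived one. Col5a1, Myl9, Tagln and Sparc, genes of fibrillar collagen, contractile filaments and collagen binding, were lower (log2 differences -1.63, -2.45, -1.44 and -0.65). The iPSC levels of Acta2 and Col1a1 were near 0 (0.0757 and 0.973 CPM in ancestral iPSCs), below both inductions. The whole list was not near 0 in iPSCs. Its summed level was 3021 to 3112 CPM in direct and 3402 to 3550 CPM in derived libraries, against 2605 to 2939 CPM in vehicle iPSCs. With BPS the list had 0 higher and 13 lower members with a median of -0.58.

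By counts of calls, endoderm, trophoblast and neural lists showed no such lean. Of 21 endoderm genes 7 were higher and 5 lower (median 0.09), and 8 were lower without derived vehicle replicate 2. The summed level of the endoderm list was 1938 to 2012 CPM in direct and 1507 to 1539 CPM in derived libraries, without overlap. Undifferentiated iPSCs lay above both inductions, at 2855 to 2948 CPM in iPSC vehicle and 3118 to 3256 CPM in ancestral iPSC vehicle libraries. Besides Cubn, Trh, which encodes the thyrotropin-releasing hormone precursor, was higher, at 556, 561 and 562 CPM in direct and 278, 211 and 271 CPM in derived libraries (log2 difference 1.16 ± 0.091, adjusted p = 5.7e-05). Dab2, which works with cubilin in endocytosis, was also higher (log2 difference 0.84), while Pdgfra, of primitive endoderm and mesoderm, and Foxa1 were lower (log2 differences -0.94 and -1.79). Of 16 trophoblast genes 4 were higher and 3 lower (median 0.06), and without derived vehicle replicate 2 the number higher was 9. Phlda2, an imprinted brake on placental growth, and Wnt7b, a WNT ligand of the chorion, were lower (log2 differences -0.99 and -1.28), and Tead4 and Tfap2a were higher (log2 differences 0.73 and 0.75). Of 15 neural and surface ectoderm genes 4 were higher and 2 lower (median 0.27), with Nes, an intermediate filament of progenitors, lower (log2 difference -0.43) and Msi1, an RNA-binding protein of neural progenitors, higher (log2 difference 0.30).

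Genes of germ cell specification leaned lower in direct vehicle PGCLCs, with 6 higher and 16 lower of 32 tested and a median of -0.26. The summed level differed little, at 4683 to 4782 CPM in direct and 4914 to 5001 CPM in derived libraries. Dppa3 (Stella), a maternal-effect protein that protects methylated DNA and marks early germ cells (chr6:122626424-122630271), had 20.2, 20.7 and 21.4 CPM in direct libraries, against 46.9, 49.4 and 44.04 CPM in derived libraries (log2 difference -1.17 ± 0.058, adjusted p = 1.2e-05). Dnd1, an RNA-binding protein that keeps germ cells alive, had 19.9, 20.98 and 22.5 CPM against 41.4, 65.7 and 44.3 CPM (log2 difference -1.22 ± 0.15, adjusted p = 4.7e-04). Kit, the receptor that germ cells need to migrate and survive, had 88.7, 88.3 and 91.7 CPM against 137, 216 and 144 CPM (log2 difference -0.85 ± 0.15, adjusted p = 0.0020). The groups did not overlap in these genes. Derived replicate 2 was the highest library for Dnd1 and Kit, but not by much for Dppa3.

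The core regulators moved little. Prdm1 (BLIMP1), the repressor that starts the germ cell program, was not called, at 51.2, 49.8 and 51.1 CPM in direct and 50.6, 74.3 and 50.8 CPM in derived libraries, and derived replicate 2 was the only library to stand out. Tfap2c, its partner, had 116, 122 and 122 CPM against 148, 201 and 143 CPM (log2 difference -0.43 ± 0.11, adjusted p = 0.014), and Nanos3, an RNA-binding protein of migrating germ cells, had 11.9, 11.5 and 10.3 CPM against 14.4, 17.99 and 14.6 CPM (log2 difference -0.47 ± 0.10, adjusted p = 0.0068). Both were lower in direct libraries by a modest amount, and Tfap2c was no longer called without direct replicate 1 (log2 difference -0.41, adjusted p = 0.059). Prdm14, which restores pluripotency and represses DNA methylation enzymes in germ cells, was higher instead, with 41.97, 42.4 and 43.5 CPM in direct and 31.2, 31.8 and 31.96 CPM in derived libraries (log2 difference 0.43 ± 0.045, adjusted p = 2.0e-04). Nr6a1, Ifitm1 and Utf1 were lower (log2 differences -0.51, -0.66 and -0.44), and Elf3 and Lin28b were higher (log2 differences 0.40 and 0.38). Prdm1, Tfap2c, Nanos3 and Dnd1 lay above both iPSC groups in both inductions, whereas Kit lay below both iPSC groups in both inductions and Dppa3 in direct vehicle PGCLCs alone (iPSC means of 37.9 and 37.7 CPM for Dppa3 and 219 and 220.0 CPM for Kit). In a fit of all 42 libraries, which takes its spread from other cell types too, the list had 1 higher and 9 lower members, and Prdm14, Tfap2c, Nanos3, Utf1, Ifitm1 and Lin28b were no longer called.

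The sort markers differed in only 1 of the 2 genes. Itgb3, which encodes integrin beta 3 (chr11:104608000-104670476), had 6.06, 5.89 and 5.86 CPM in direct vehicle PGCLCs, against 12.8, 21.95 and 13.6 CPM in derived vehicle PGCLCs (log2 difference -1.39 ± 0.18, adjusted p = 6.0e-04). Fut4, the fucosyltransferase that gives its name to the other antigen, had 6.72, 5.98 and 6.35 CPM in direct and 4.75, 7.37 and 5.84 CPM in derived libraries and was not called (log2 difference 0.11 ± 0.16, adjusted p = 0.60). The direct libraries were below every derived library for Itgb3 and within their range for Fut4. Both genes were higher in the PGCLCs than in vehicle iPSCs, where ancestral iPSCs averaged 2.43 CPM of Itgb3 and 0.0589 CPM of Fut4. Itgb3 encodes an antigen of the sort gate, and the part of the sort in these differences was not tested.

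Genes that germ cells use later were low and mostly not called, with 1 higher and 3 lower of 30 tested (7 lower without derived vehicle replicate 2 and 4 higher without derived vehicle replicate 1). Tdrd5 and Tdrkh, of the piRNA pathway, were lower (log2 differences -0.90 and -0.87), and Hsf2bp, a meiotic recombination factor, was higher (log2 difference 0.61). Dazl, which binds RNA in germ cells that have reached the gonad, had 4.52, 4.38 and 4.48 CPM in direct and 4.95, 2.49 and 4.75 CPM in derived libraries and was not called. In the BPS arm the specification list had 4 higher and 14 lower members, and Dppa3 had 21.9, 16.7 and 18.4 CPM in direct BPS and 32.1, 29.1 and 34.8 CPM in derived BPS PGCLCs.

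**Figure D3:**
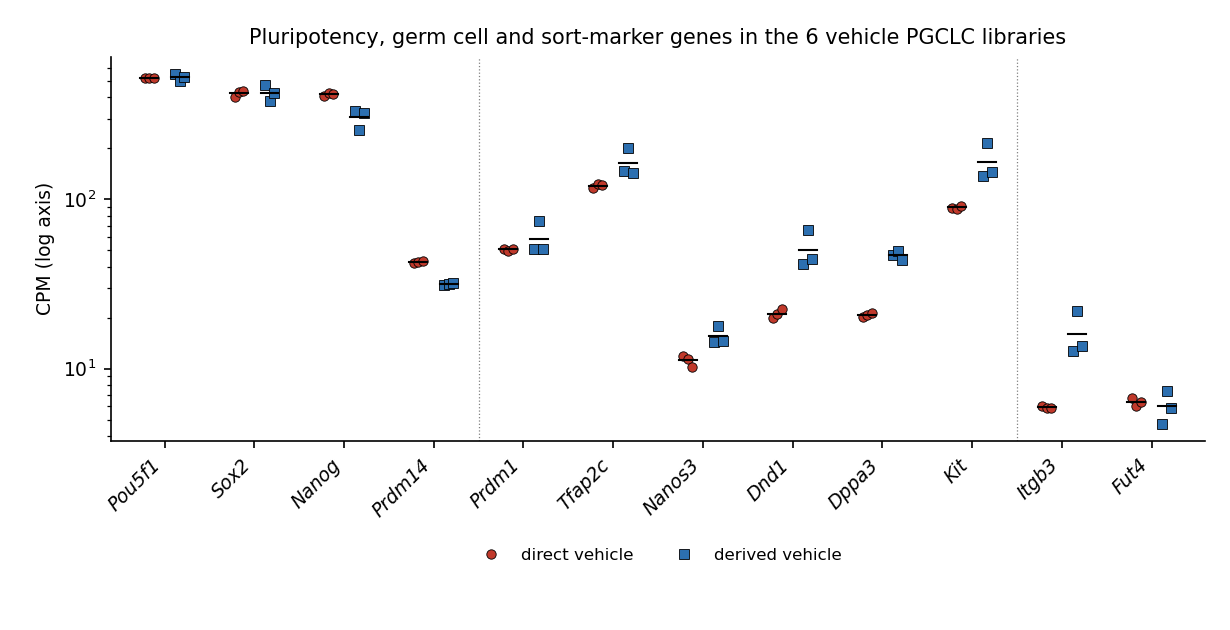
Level of pluripotency genes, germ cell genes and the 2 sort marker genes in each vehicle PGCLC library, in CPM on a log axis, direct libraries left of derived ones and a bar at each group mean. Pou5f1, Sox2, Prdm1 and Fut4 overlap between the inductions, Nanog and Prdm14 lie higher in direct libraries, and Tfap2c, Nanos3, Dnd1, Dppa3, Kit and Itgb3 lie lower in direct libraries.

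Genes of the naive pluripotent state leaned higher in direct vehicle PGCLCs, with 13 higher and 5 lower of 26 tested and a median of 0.39. The summed level was 5426 to 5515 CPM in direct libraries, against 3795 to 5210 CPM in derived libraries and 9803 to 10170 CPM in vehicle iPSCs, above both inductions. Nanog had 409, 426 and 416 CPM in direct and 334, 256 and 324 CPM in derived libraries (log2 difference 0.46 ± 0.088, adjusted p = 0.0034). Tfcp2l1, Esrrb, Klf2, Tcl1 and Tbx3, all parts of the naive network, were higher (log2 differences 0.53, 0.42, 0.27, 0.57 and 0.43). Fgf4, the growth factor of the epiblast, had 92.5, 92.6 and 94.99 CPM against 58.97, 29.6 and 54.7 CPM (log2 difference 1.03 ± 0.22, adjusted p = 0.0056). In these genes derived replicate 2 was the lowest library, and the other two derived libraries lay between it and the direct ones. In the fit of all 42 libraries Nanog, Esrrb and Tcl1 were no longer called (adjusted p = 0.063, 0.16 and 0.23).

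Pou5f1 (OCT4) and Sox2, the shared core of pluripotency, did not differ by the test. Pou5f1 had 519.7, 519 and 522 CPM in direct and 548, 499 and 529 CPM in derived libraries (log2 difference -0.013 ± 0.039, adjusted p = 0.80), and Sox2 had 403, 430.1 and 434 CPM and 474, 379 and 426 CPM (log2 difference -0.0085 ± 0.073, adjusted p = 0.94). The primed epiblast list had 8 higher and 3 lower members of 25 (median -0.0027), and 6 lower without derived vehicle replicate 2. Zic2 and Zic5, zinc-finger factors of the epiblast, Otx2, of the anterior epiblast, and Dnmt3b, the de novo DNA methyltransferase, were higher (log2 differences 1.06, 0.99, 0.95 and 0.63). Dnmt3b lost its call when any one of the direct libraries was left out (adjusted p = 0.076 to 0.081). Wnt3, the ligand that makes epiblast competent for germ cell fate, had 32.4, 32.6 and 32.1 CPM against 23.7, 26.3 and 25.6 CPM (log2 difference 0.36 ± 0.056, adjusted p = 0.0013), and was not called in the fit of all 42 libraries (adjusted p = 0.40). Fgf5, the classic gene of the primed state, was at 0.875, 0.901 and 0.706 CPM in direct and 0.690, 0.983 and 0.899 CPM in derived libraries, so its level was low in both. Sox17, of endoderm and human germ cells, was at 2.45, 2.90 and 3.41 CPM against 1.78, 3.11 and 2.75 CPM and was not called either. The housekeeping gene Gusb, which encodes a lysosomal enzyme and serves as a reference in PCR, was higher, at 28.0, 30.6 and 30.1 CPM in direct and 21.0, 20.8 and 22.3 CPM in derived libraries (log2 difference 0.47 ± 0.060, adjusted p = 5.3e-04).

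Imprinted genes were lower in direct vehicle PGCLCs at 16 of 40 members tested and higher at 6 (median -0.13), or at 10 without derived vehicle replicate 2. Igf2, the fetal growth factor expressed from the paternal allele (chr7:142650768-142666816), had 718, 727 and 719 CPM in direct libraries, against 1788, 2419.5 and 1938 CPM in derived libraries (log2 difference -1.49 ± 0.093, adjusted p = 2.0e-05). H19, the noncoding RNA made from the maternal allele of the same domain, had 1222, 1235 and 1201 CPM against 1686, 1982 and 1702 CPM (log2 difference -0.55 ± 0.059, adjusted p = 2.2e-04). Both were lower in direct libraries without overlap, although H19 was not called in the fit of all 42 libraries (adjusted p = 0.15), and both were near 0 in iPSCs (0.561 and 0.592 CPM in ancestral iPSCs). Grb10 and Igf2r, brakes on growth signals, Mest, a paternally expressed gene of mesoderm, and Meg3 and Rian, noncoding RNAs of one domain, were lower (log2 differences -0.80, -0.88, -0.83, -0.27 and -0.33). Igf2r is overlapped by the antisense Airn, which was lower too (log2 difference -1.31), and reads of the pair may be mixed since the strand setting of the counting is not given in the sources used here. Impact, a regulator of translation, was higher (log2 difference 0.56). The summed level was 8243 to 8443 CPM in direct and 10510 to 12750 CPM in derived libraries, against 2462 to 2891 CPM in iPSCs. Igf2 and H19, expressed from opposite parental alleles, were both lower, and the allele of origin was not measured.

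Of the DNA methylation enzymes, 5 were higher and 5 lower of 19 tested (median 0.0041), with 1 or 2 higher when any one of the direct libraries was left out and 3 lower when any library but derived replicate 2 was. Dnmt3l, the cofactor of de novo methylation, had 3.05, 2.90 and 2.70 CPM in direct libraries, against 26.1, 3.64 and 20.3 CPM in derived libraries (log2 difference -2.10 ± 0.61, adjusted p = 0.023). Derived replicate 2 lay next to the direct libraries here, and the difference came from the other two derived libraries. It was called with all 6 libraries and without derived replicate 2, and not without any one of the others (adjusted p = 0.058 to 0.083), with limma-voom on recovered reads (0.085) or without the filter on low values (0.067). Among histone methyl enzymes 8 were higher and 8 lower of 32, with 4 higher without direct replicate 2 and 5 without direct replicate 3. Suv39h1, which writes the methyl marks of heterochromatin, had 104, 105 and 105 CPM against 216, 274 and 232 CPM (log2 difference -1.19 ± 0.075, adjusted p = 2.3e-05) and Kdm5a and Kdm3a, demethylases, were higher (log2 differences 0.49 and 0.69).

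Glycolysis genes were higher in direct vehicle PGCLCs at 21 of 27 members tested and lower at 2, with a median of 0.38. Their summed level was 8848, 8935 and 9012 CPM in direct libraries, against 6943, 6628 and 6898 CPM in derived libraries. In undifferentiated iPSCs it was 8192 to 8860 CPM (iPSC vehicle) and 9481 to 9590 CPM (ancestral iPSC vehicle). Tpi1, triose phosphate isomerase, had 314, 305 and 316 CPM in direct and 196, 189.8 and 198 CPM in derived libraries (log2 difference 0.68 ± 0.033, adjusted p = 1.2e-05). Slc2a1, the glucose transporter GLUT1, had 394, 406 and 422 CPM against 222, 266 and 232 CPM (log2 difference 0.77 ± 0.064, adjusted p = 7.8e-05), and Gapdh, often used as a reference gene, had 797, 821 and 814 CPM against 605, 497 and 608 CPM (log2 difference 0.51 ± 0.071, adjusted p = 7.8e-04). No direct library overlapped with a derived one in any of the 3 genes. Slc2a3, the transporter GLUT3, Slc16a3 and Slc16a1, which carry lactate, Ldha, lactate dehydrogenase, Hk2, hexokinase 2, and Pfkl, phosphofructokinase, were higher (log2 differences 0.67, 1.15, 0.63, 0.52, 0.76 and 0.41). Aldoc, a second aldolase isoform, was lower (log2 difference -0.81). In the BPS arm 15 members were higher and 2 lower with a median of 0.17, and 4 members (Pfkfb3, Slc16a3, Slc2a1 and Slc2a3) were called in the difference between the arms.

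Hypoxia-response genes were higher in direct vehicle PGCLCs at 16 of 31 members and lower at 5, with a median of 0.30, and 2 were lower without direct replicate 1 or 3. The hypoxia-inducible factors bind to DNA at sites with the core ACGTG when oxygen or its sensors, the EGLN enzymes, are limiting. Stretches of 3 promoters are shown, since these genes are among those with the largest differences and hold the core. Each runs 5′ to 3′ on the strand of its gene, the minus strand, and ends before the transcription start. Capitals mark ACGTG, or CACGTG where the core lies in this longer palindrome.
Pfkfb3 (chr2:11553940-11554039): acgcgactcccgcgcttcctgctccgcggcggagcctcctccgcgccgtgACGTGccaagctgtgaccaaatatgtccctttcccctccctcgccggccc
Ankrd37 (chr8:45999851-45999950): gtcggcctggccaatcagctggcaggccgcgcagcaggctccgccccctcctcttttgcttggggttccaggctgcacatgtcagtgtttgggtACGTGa
Bnip3 (chr7:138909564-138909663): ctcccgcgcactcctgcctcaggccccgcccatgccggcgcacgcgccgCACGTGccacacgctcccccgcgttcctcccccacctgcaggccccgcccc

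The sequences are from RefSeq (GRCm38.p6), in a window of 250 bases before to 50 bases after each start, and ACGTG was searched on both strands. It was found in 8 of 13 matched hypoxia genes that were higher (61.5%), in 10 of 13 that were tested and not higher (76.9%) and in 28.3% of the genes tested with a promoter entry, or 19.6% of all 32851 windows. The list was rich in the core whether its members were higher or not, so the motif did not separate them. A match describes the sequence only.

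Bhlhe40 (DEC1), a circadian and hypoxia-induced repressor (chr6:108660629-108666925), had 168, 176 and 170.2 CPM in direct vehicle PGCLCs, against 49.8, 47.9 and 49.7 CPM in derived vehicle PGCLCs (log2 difference 1.80 ± 0.039, adjusted p = 1.9e-07). It had the smallest adjusted p of all genes tested. Pfkfb3, which makes the activator of phosphofructokinase, had 40.1, 38.1 and 41.6 CPM against 10.2, 14.8 and 12.2 CPM (log2 difference 1.70 ± 0.12, adjusted p = 3.4e-05). Ankrd37, an ankyrin-repeat protein and hypoxia target, had 12.7, 12.5 and 11.4 CPM against 4.26, 3.87 and 3.48 CPM (log2 difference 1.65 ± 0.11, adjusted p = 2.3e-05). These genes were 3-fold or more higher by mean, without overlap between the inductions. Replicates were tight for Bhlhe40, while the derived libraries of Pfkfb3 ran from 10.2 to 14.8 CPM. Ddit4 (REDD1), which restrains mTORC1, had 343, 341 and 325 CPM against 151, 179 and 157 CPM (log2 difference 1.05 ± 0.062, adjusted p = 1.6e-05), and Bnip3, a mitophagy receptor, had 22.9, 26.1 and 25.9 CPM against 10.3, 15.5 and 9.80 CPM (log2 difference 1.10 ± 0.16, adjusted p = 9.3e-04). Egln3 and Egln1, the oxygen sensors, Ndrg1 and Kdm3a were higher (log2 differences 0.73, 0.63, 0.94 and 0.69). Vegfa, the vessel growth factor and a textbook target, was lower, at 27.1, 26.3 and 24.5 CPM in direct and 34.4, 42.01 and 37.4 CPM in derived libraries (log2 difference -0.54 ± 0.078, adjusted p = 9.4e-04).

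The hypoxia difference was found with vehicle and, for most members, not with BPS. In the BPS arm 5 members were higher and 6 lower, with a median of -0.035. The summed level of the list was 1871, 1907 and 1891 CPM in direct vehicle, against 1386, 1480 and 1386 CPM in derived vehicle PGCLCs. With BPS it was 1347, 1433 and 1371 CPM in direct and 1567, 1412 and 1426 CPM in derived PGCLCs. The direct vehicle libraries were thus the ones apart among PGCLCs, above all 9 other PGCLC libraries. Undifferentiated iPSCs lay above every PGCLC library, at 2755 to 2814 CPM in iPSC vehicle and 3217 to 3346 CPM in ancestral iPSC vehicle libraries. The test of the difference between the arms called 333 of 16894 genes (189 with a higher and 144 with a lower direct minus derived value in vehicle, 1.12% and 0.852%) and 11 of the 31 hypoxia members, all 11 with the higher direct minus derived value in vehicle. For Pfkfb3 the log2 difference was 1.70 in vehicle and 0.16 in BPS, and their difference was 1.53 ± 0.17 (adjusted p = 0.0014). For Bhlhe40 it was 1.80 in vehicle and 0.65 in BPS (difference 1.15 ± 0.11, adjusted p = 5.3e-04). Tpi1 and Gapdh were also higher in direct than in derived PGCLCs with BPS (log2 differences 0.55 and 0.51) and were not called in this test. Across single-library omissions, the number of genes called in the difference between arms ran from 106 (without direct vehicle replicate 3) to 769 (without derived vehicle replicate 2), with a count below the full 333 in 10 of the 12 omissions, and the number of hypoxia members from 8 to 13.

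**Figure D4:**
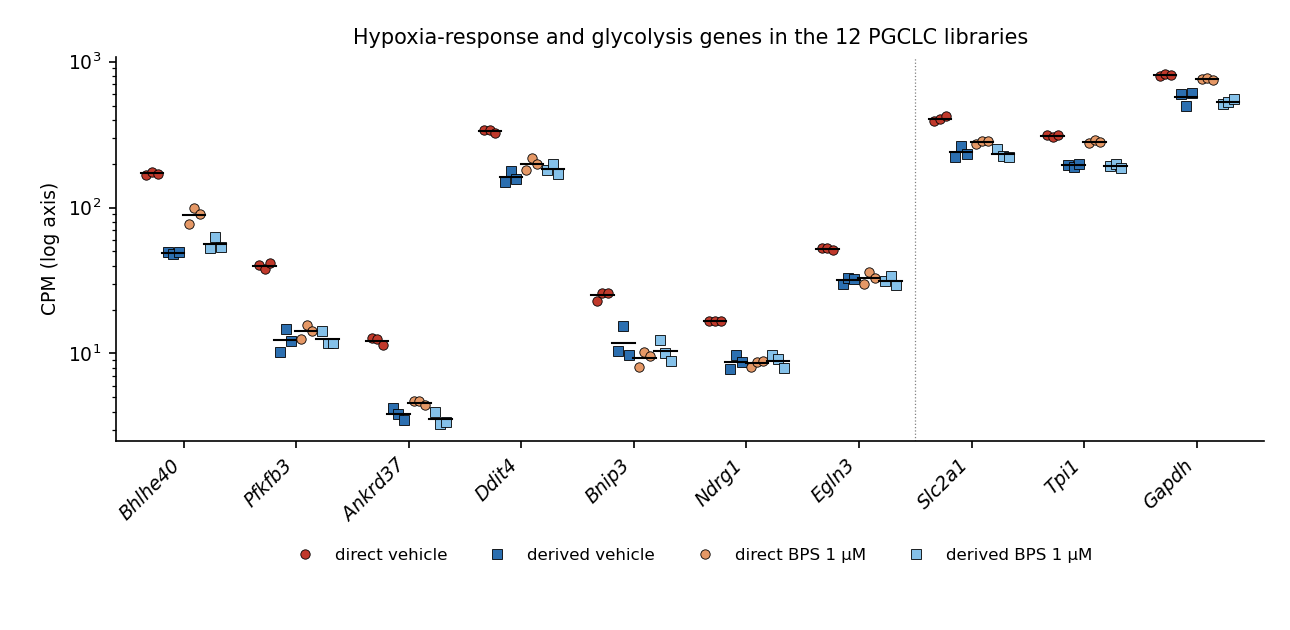
Level of hypoxia-response and glycolysis genes in the 12 PGCLC libraries, in CPM on a log axis, in the order direct vehicle, derived vehicle, direct BPS and derived BPS for each gene. Bhlhe40, Pfkfb3, Ankrd37, Ddit4, Bnip3, Ndrg1 and Egln3 are highest in the 3 direct vehicle libraries and nearer to each other in the remaining groups, whereas Tpi1 and Gapdh are higher in direct than in derived libraries with vehicle and with BPS.

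Cholesterol synthesis genes were mostly lower, with 0 higher and 19 lower of 25 tested in direct vehicle PGCLCs and a median of -0.39. The summed level was 1407, 1459 and 1434 CPM in direct libraries, against 2024, 1895 and 2025 CPM in derived libraries and 3101 to 3469 CPM in vehicle iPSCs. Hmgcs1, the synthase at the entry of the pathway, had 197, 195 and 199 CPM in direct and 305, 296 and 311 CPM in derived libraries (log2 difference -0.62 ± 0.033, adjusted p = 1.3e-05). Sqle, the epoxidase that acts on squalene, had 47.4, 53.6 and 47.6 CPM against 89.6, 90.8 and 88.1 CPM (log2 difference -0.86 ± 0.054, adjusted p = 2.3e-05). Every direct library was below every derived one in both genes. Fdps, of farnesyl synthesis, and Srebf2, the transcription factor that drives the pathway, were lower (log2 differences -0.88 and -0.53). With BPS 0 were higher and 14 lower with a median of -0.27. The box CCAAT, read on both strands, was present in the promoters of 12 of 13 matched members that were lower (92.3%) and of 43.2% of the genes tested. Its share was not taken for the members that were not lower, so whether it separates members within the list was not tested. Fatty acid synthesis differed less, with 6 higher and 3 lower of 19 (3 higher without direct replicate 2 and 7 lower without derived replicate 2) and Fasn, fatty acid synthase, lower (log2 difference -0.24).

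Genes of the integrated stress response, which ATF4 drives when amino acids run short, were higher in direct vehicle PGCLCs at 25 of 42 members and lower at 5, with a median of 0.28. Asns, asparagine synthetase, had 318, 327 and 319 CPM in direct and 185, 146 and 178 CPM in derived libraries (log2 difference 0.93 ± 0.078, adjusted p = 8.1e-05), and Pck2, the mitochondrial carboxykinase, had 41.1, 41.4 and 42.5 CPM against 24.1, 25.3 and 26.1 CPM (log2 difference 0.73 ± 0.052, adjusted p = 3.7e-05). Both were higher in direct libraries without overlap, and both were below their iPSC level (943 and 80.2 CPM in ancestral iPSCs). Phgdh, of serine synthesis, Aldh18a1, of proline synthesis, and the folate enzymes Mthfd1l and Shmt2 of mitochondria were higher (log2 differences 0.56, 0.65, 0.69 and 0.39). The transcription factor Cebpg was lower (log2 difference -0.90). The BPS arm gave nearly the same picture, with 24 higher and 5 lower and a median of 0.28.

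One-carbon and nucleotide synthesis genes were higher at 16 of 30 members and lower at 2 (median 0.13), and this count was 8 without direct replicate 2 or 3 and 10 without direct replicate 1. Antioxidant genes were higher at 12 of 26 and lower at 3 (median 0.15). Nqo1 and Hmox1, targets of NRF2, were higher (log2 differences 1.07 and 0.81), Tkt, of the pentose phosphate path, was higher (log2 difference 0.54), and Gpx3, a secreted peroxidase, and Gstm1 were lower (log2 differences -1.01 and -0.92).

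Cell cycle genes split by phase. Genes of the G1/S step and of replication were higher at 17 of 36 members and lower at 2 (median 0.09), and without direct replicate 2 or 3 the number higher was 11. Cdt1, which licenses origins, had 258, 260.2 and 262 CPM in direct and 181, 147 and 174 CPM in derived libraries (log2 difference 0.64 ± 0.070, adjusted p = 2.5e-04), and Mcm2 and Mcm5, of the replicative helicase, were higher (log2 differences 0.44 and 0.38). Mitosis genes were lower at 19 of 30 members and higher at 1 (median -0.14). Aurka, the kinase of the spindle poles, had 77.1, 76.3 and 76.02 CPM against 106, 116 and 109.6 CPM (log2 difference -0.53 ± 0.043, adjusted p = 6.3e-05), and Prc1, Cenpf and Ube2c were lower (log2 differences -0.42, -0.40 and -0.24). With BPS 3 mitosis members were higher and 4 lower, with a median of -0.0015, and 3 members were called in the difference between the arms. Of 19 genes of growth arrest and D cyclins 5 were higher and 8 lower (median -0.10), and 4 were called in the difference between the arms. The D cyclin Ccnd2 had 179.6, 178 and 177 CPM in direct, against 62.2, 75.3 and 65.2 CPM in derived libraries (log2 difference 1.40 ± 0.065, adjusted p = 1.1e-05), and Ccnd3 had 196, 197 and 204 CPM against 273, 270.1 and 276 CPM (log2 difference -0.46 ± 0.033, adjusted p = 3.9e-05). The inhibitors Cdkn1b (p27) and Cdkn2a were higher (log2 differences 0.64 and 0.93), and Cdkn1a (p21) and Gadd45g were lower (log2 differences -0.28 and -1.24).

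Immediate early genes, which respond within minutes to growth factors and handling, were lower in direct vehicle PGCLCs at 15 of 27 members and higher at 3, with a median of -0.31. Fosb had 1.79, 1.96 and 1.47 CPM in direct libraries, against 12.5, 18.3 and 22.8 CPM in derived libraries (log2 difference -3.30 ± 0.21, adjusted p = 2.3e-05). Fos, its close relative, had 21.2, 21.04 and 23.4 CPM against 39.5, 53.4 and 52.97 CPM (log2 difference -1.14 ± 0.11, adjusted p = 1.6e-04), and Egr1, a zinc-finger factor, had 49.04, 48.2 and 48.8 CPM against 89.5, 82.6 and 80.8 CPM (log2 difference -0.79 ± 0.048, adjusted p = 1.9e-05). Direct libraries were lower than every derived library in all 3 genes, though Egr1 had no call in the fit of all 42 libraries (adjusted p = 0.19). Ccn1, a matrix protein and YAP target, Nr4a1 and Junb were lower (log2 differences -1.04, -0.54 and -0.42). With BPS, Fosb averaged 9.44 ± 1.59 CPM in direct and 26.3 ± 9.81 CPM in derived PGCLCs (SD, n = 3 each), and its induction difference was larger in size with vehicle (difference of the log2 differences -1.89 ± 0.37, adjusted p = 0.022).

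Heat shock and chaperone genes were lower at 15 of 25 members and higher at 2 (median -0.34). Hspa8, the constitutive HSP70, had 1905, 1948 and 1958 CPM in direct and 3032, 2709 and 2948 CPM in derived libraries (log2 difference -0.58 ± 0.044, adjusted p = 4.8e-05). Hspa5 (BiP), the chaperone of the endoplasmic reticulum, had 467, 475 and 472 CPM against 643, 654 and 629 CPM (log2 difference -0.45 ± 0.030, adjusted p = 2.7e-05). The groups were apart in both. Dnaja1, Hspb1 and Hsph1 were lower (log2 differences -0.59, -0.59 and -0.48). With BPS 5 members were higher and 12 lower (median -0.10). Hspa8 and Hsph1 lay closer together there, with log2 differences of -0.10 and -0.0033, and both were among the 4 members called in the difference between the arms.

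Cytosolic ribosomal protein genes were lower at 46 of 82 members and higher at 7, but by little (median -0.13), and the sum was 31300 to 32070 CPM in direct and 33410 to 34340 CPM in derived libraries. The count of lower members was 25 without direct replicate 2, 24 without direct replicate 3, and 5 when all 42 libraries entered the fit. Nuclear genes of oxidative phosphorylation gave 5 higher and 20 lower of 80 (median -0.05), and the lower count was 12 without direct replicate 2 or 3, and 8 when all 42 libraries entered. The tricarboxylic acid cycle gave 5 higher and 3 lower of 23 (median 0.02), and 3 higher without direct replicate 2 or 3, with the succinyl-CoA ligase subunit Suclg2 the clearest member, at 108, 115 and 117 CPM in direct and 81.1, 68.4 and 77.2 CPM in derived libraries (log2 difference 0.59 ± 0.064, adjusted p = 2.5e-04). By median, these lists stood closer to 0 than the glycolysis and cholesterol lists.

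**Figure D5:**
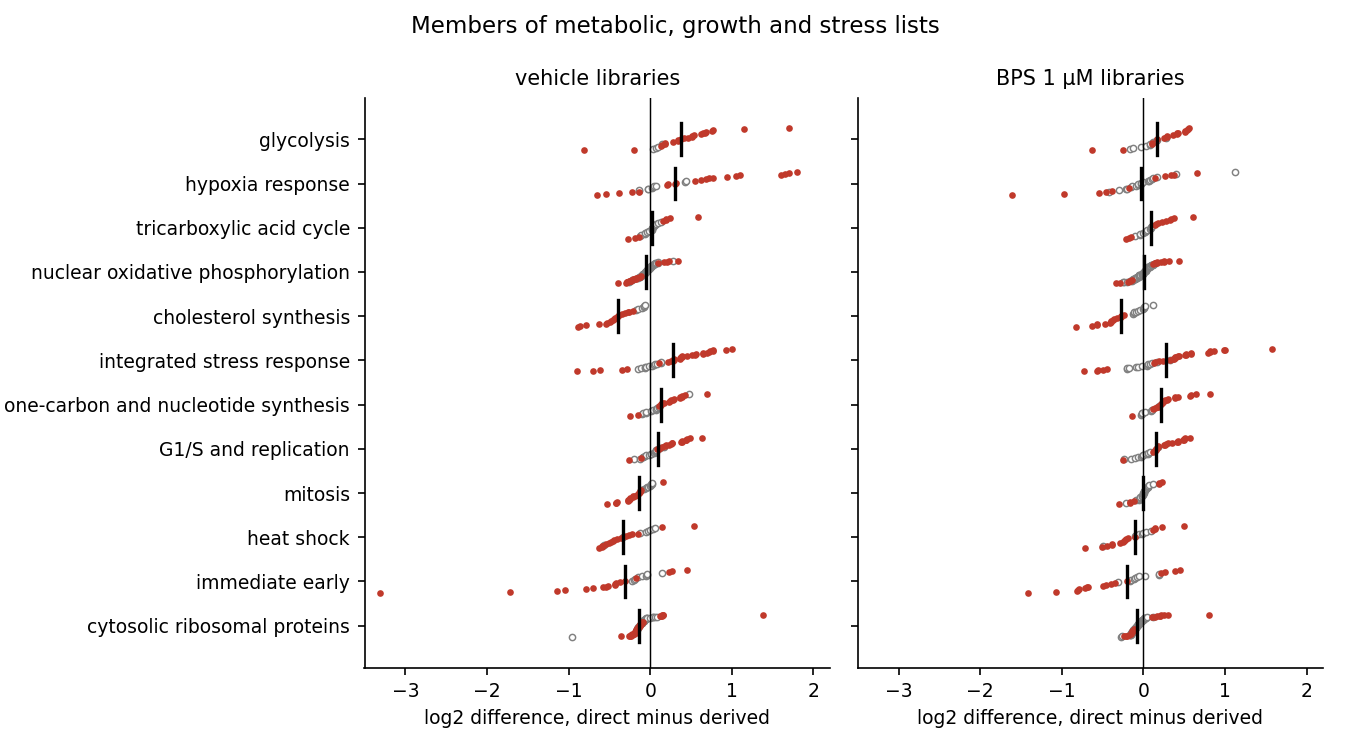
Log2 difference, direct minus derived PGCLCs, of the members of 12 gene lists, in the vehicle arm (left panel) and the BPS arm (right panel). Each point is a gene, filled red where called and open grey where not, and the black bar is the list median. The median of the cholesterol list lies below 0 in both panels. The median of the hypoxia list lies above 0 with vehicle and close to 0 with BPS.

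Signaling outputs differed from list to list. Of 23 WNT targets 6 were higher and 3 lower (median 0.11), and 14 were higher without derived vehicle replicate 2. Besides T and Fgf8, the feedback inhibitors Nkd1 and Znrf3 were higher (log2 differences 1.06 and 0.72), whereas Dkk1, a secreted inhibitor, Apcdd1 and Lef1, a WNT effector, were lower (log2 differences -0.87, -0.86 and -0.70). Of 19 members of the NODAL pathway 5 were higher and 2 lower (median 0.05), and 10 were higher without derived vehicle replicate 2. Lefty2, the inhibitor that NODAL induces, had 391, 403 and 400.5 CPM in direct and 261, 255 and 267 CPM in derived libraries (log2 difference 0.61 ± 0.033, adjusted p = 1.3e-05), without a call in the fit of all 42 libraries (adjusted p = 0.12), and Pcsk6, a convertase that matures NODAL, was higher (log2 difference 0.91). Of 19 BMP targets 6 were higher and 4 lower (median 0.13), with Id2 and Id4, inhibitors of bHLH factors, higher (log2 differences 0.88 and 0.86) and Smad6 and Bambi, feedback inhibitors, lower (log2 differences -0.46 and -0.47). LIF and STAT3 outputs had the most calls of these, with 4 higher and 10 lower of 16 (median -0.20), 2 being higher without any one of the direct libraries, with Socs3, the feedback inhibitor, at 99.6, 99.1 and 99.2 CPM in direct and 118, 124 and 120.2 CPM in derived libraries (log2 difference -0.28 ± 0.035, adjusted p = 4.9e-04). FGF outputs were split, with 7 higher and 4 lower of 20, Dusp4, a phosphatase of ERK, higher (log2 difference 0.57) and Phlda1 lower (log2 difference -0.90).

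Matrix and p53 lists lay near the shares over all genes, and cytoskeletal genes leaned lower. Of 20 matrix genes 5 were higher and 7 lower (median -0.10), with 3 higher without direct replicate 2 or 3 and 2 higher in the fit of all 42 libraries. Nid1 and Col18a1, of the basement membrane, were lower (log2 differences -0.70 and -0.69) and Lama1, the laminin chain of the early embryo, was higher (log2 difference 0.52). Of 25 genes of cytoskeleton and epithelium 3 were higher and 12 lower (median -0.24), and 7 were lower without direct replicate 1. Cdh1, E-cadherin, had 452, 478 and 468 CPM in direct libraries, against 345, 368 and 326 CPM in derived libraries (log2 difference 0.43 ± 0.047, adjusted p = 2.6e-04), and Cdh2, N-cadherin, had 84.7, 84.2 and 84.6 CPM against 98.7, 117 and 103 CPM (log2 difference -0.33 ± 0.060, adjusted p = 0.0029). The epithelial cadherin was thus higher and the mesenchymal one lower in direct vehicle PGCLCs, each without overlap, though Cdh1 had no call in the fit of all 42 libraries (adjusted p = 0.12). Of 19 YAP targets 4 were higher and 7 lower (median -0.11), and of 26 p53 targets 5 were higher and 7 lower (median -0.0025).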

How the data were processed

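The deposited table held log2 CPM values of 22186 genes in 42 libraries. Per the labels and the study's methods, the authors checked reads with FastQC, mapped them to mm10 and counted them per gene with Rsubread, and scaled them by trimmed means of M-values (TMM) before taking CPM on the log2 scale. A gene with no read is listed at -5.00, which corresponds to 0.0313 CPM added before the log. Undoing the log gave whole reads within 0.05 of a read for 99.9% or more of the values of each library, and depths and CPM were taken from this. At 26693847 to 32775190 reads per library, values under about 1 CPM rest on few reads. The strand setting of the counting is not given in the sources used here, and 1222 symbols carry a copy suffix.

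The 6 vehicle PGCLC libraries were compared, direct minus derived, with limma 3.58.1 (trend option) in R 4.3.3, on genes that reached 0.5 CPM in 3 or more libraries, with Benjamini-Hochberg adjustment and a threshold of 0.05. The same was done for the 6 BPS PGCLC libraries, and the difference between the 2 contrasts was tested over all 12. Gene lists are described by counts and medians beside all genes. The members and lists were chosen with earlier results of these data known. The text names the 12 largest increases and decreases of genes with a mean of at least 5 CPM, no overlap and no copy suffix, the study's PCR panel with Fut4 and T, up to 8 members of each list by adjusted p and its defining members, and others named, such as Hand1, Cdx2, Mesp1, Kit, Vegfa and the anterior HOX genes, were chosen after their values were seen. The fit was tested on simulated data. Alternatives were the CPM added before the log, the filter, median-ratio and upper-quartile scaling, voom on the recovered reads, fits of 12 and 42 libraries, the replicate number as a block, and each library left out. Replicate numbers did not pair the samples. A few members of the lists are counted and not reported by name here. Figures and tables used Python 3.11.15, pandas 2.3.3 and matplotlib 3.10.9, and promoter windows came from RefSeq (GRCm38.p6), matched by symbol.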

Additional observations from a re-analysis of the deposited data

Results flagged for a closer look

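The test of whether direct and derived PGCLCs differed by another amount with vehicle than with BPS called 333 genes of 16894. Of the hypoxia-response list, the direct minus derived log2 difference was higher with vehicle than with BPS for Pfkfb3 (by 1.53), Ankrd37 (1.27), Bnip3 (1.25), Bhlhe40 (1.15), Vegfa (1.06), Ndrg1 (1.00), Ddit4 (0.94), Egln3 (0.66), Egln1 (0.56), Kdm3a (0.42) and Plod2 (0.31). Vegfa was lower in direct PGCLCs in both arms, with log2 differences of -0.54 with vehicle and -1.60 with BPS. Fosb, an immediate early gene, had a lower value with vehicle, the difference between the arms being -1.89 (log2 differences -3.30 with vehicle and -1.41 with BPS). All 12 genes passed the limma test of the difference of the differences at an adjusted p of at most 0.05 over all genes tested.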

How the results depend on the processing

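The count of 7183 genes called between the vehicle inductions stayed within 1.5 times under every alternative run. It ran from 5969 to 7655 over the settings that kept all 6 libraries, and from 5066 (without direct vehicle replicate 2) to 8581 (without derived vehicle replicate 2) when one was left out. With direct replicate 1 and derived replicate 2 left out together, a choice made after seeing the data, it was 8092. No gene called in the 6-library fit had the opposite sign in any of these settings. Upper-quartile scaling moved the share of calls that were higher to 53.4%, against 46.9%. For the BPS inductions, the count of 5960 ran from 4081 to 6810 with 1 library left out.

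Same-numbered direct and derived vehicle libraries did not deviate together (correlations of -0.126, 0.0242 and -0.0593), so the numbers do not pair the samples. The replicate block gave 6629 calls between the vehicle inductions and 5957 between the BPS inductions. For the difference between the arms, the block instead paired vehicle and BPS libraries by number within each induction. Correlations of these pairs were -0.286, -0.0303 and -0.147 in direct and -0.313, 0.198 and 0.185 in derived PGCLCs. With this block 138 genes were called, against 333 without it, of which the cause was not tested. The difference between the arms was the least stable result, with 106 to 769 calls when 1 of the 12 libraries was left out, a setting added after seeing the data. Under the block 10 hypoxia members were called.

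Of the named genes, Cdx2, which was not called and had a value near 0, was the only one called with the opposite sign. It ran from -0.129 (without derived vehicle replicate 1) to 0.175 (without derived vehicle replicate 2) and was 0.190 with both libraries left out. Counts of list members that were small to begin with moved most, and lists whose members differed by little, such as the ribosomal proteins, lost most calls in the fit of all 42 libraries. Among those with larger counts, the HOX, smooth muscle, cholesterol, glycolysis, stress response and mitosis lists had their main direction's count within 1.5 times in every setting. Genes under about 1 CPM rest on few reads, and the depth limits what can be said of them.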
